A study of Homo sapiens with 9 samples.

Results

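Plasmin dissolves fibrin and other proteins of the extracellular matrix, and coagulation lays fibrin down, so that tumour cells which make the enzymes of both systems can remodel the matrix around them. The genes studied here start, anchor or brake these reactions: *PLAU* (urokinase), *PLAT* (the tissue-type activator), *PLAUR* (the urokinase receptor), *SERPINE2* and *SERPINB2* (inhibitors of serine proteases), *F3* (tissue factor), *THBD* (thrombomodulin), *TFPI* and *TFPI2* (inhibitors of the Kunitz type). They were taken by name from the annotated rows of the array table, 1 transcript cluster per gene. Of the 9 listed genes, 8 were found among 22465 genes with a single symbol, and each of the 8 has 1 transcript cluster. *SERPINB2* matched no row with a single symbol and is not analysed here. Of the 8 genes, 4 belong to fibrinolysis and 4 to coagulation.

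MDA-MB-231 cells, an established line of triple negative breast cancer, were studied as 3 stable cultures with 3 RNA samples each. The cultures carry a lentiviral shRNA against *ELOVL5* (ELOVL5 knockdown), which encodes an elongase of polyunsaturated fatty acids, a shRNA against *IGFBP6* (IGFBP6 knockdown), which encodes a secreted binder of insulin-like growth factors, or a shRNA against firefly luciferase (LUC control), all after selection with puromycin. Each group is 1 transduced culture, so the knockdown and the history of that culture cannot be told apart, and a p-value here reflects only how RNA samples of a culture vary. All values below are log2 intensities on the Human Transcriptome Array 2.0 as processed by the authors, and 1 unit is a change of 2 times.

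The median of all values was 5.02, and array medians ranged from 4.95 to 5.10. Each targeted mRNA was lower in its own knockdown, with log2 fold changes of -1.66 for *ELOVL5* and -0.62 for *IGFBP6*. The change of *IGFBP6* was under 1.5 times without IGFBP6 replicate 2 (-0.52) or control replicate 2 (-0.58). Within groups, arrays correlated pairwise at 0.995 to 0.998 in the ELOVL5 knockdown, 0.990 to 0.994 in the IGFBP6 knockdown and 0.994 to 0.995 in the control. Of 8 mesenchymal markers of this cell line, 7 had a mean of at least 6 in every group, but in IGFBP6 knockdown cells *CD44*, *AXL*, *CAV1* and *LGALS1* were called lower than in the control and *EGFR* higher. Of 9 luminal markers, *GATA3*, *KRT8* and *KRT19* were called lower there and *FOXA1* higher, and *FOXA1* was also called higher in ELOVL5 knockdown cells. The hormone receptors *ESR1* and *PGR* lay between 4.03 and 4.79 on all arrays. Among 11 endothelial markers, *VWF*, *PECAM1* and *CDH5* stayed between 3.45 and 5.00, while 2 others rose in IGFBP6 knockdown cells (*KDR* by 0.63, or 0.57 and under 1.5 times without IGFBP6 replicate 2, and *TIE1*) and *ESAM* fell. The summed log2 level of the 11 was 9.44 to 9.58 in ELOVL5 knockdown cells, 9.26 to 9.47 in IGFBP6 knockdown cells and 9.34 to 9.52 in control cells. Summed over 10 markers of blood cells, the log2 level was 12.61 to 12.67 in ELOVL5 knockdown cells, 14.07 to 14.45 in IGFBP6 knockdown cells and 11.94 to 12.40 in control cells. That sum follows the lysosomal gene *CD68*, which was higher by 2.22 in IGFBP6 knockdown cells than in the control, whereas *PTPRC*, *CSF1R* and *SPI1* did not exceed 5.46 on any array, with *PTPRC* called lower in IGFBP6 knockdown cells. All 8 fibroblast markers measured had means under 6 in every group. In bulk RNA, fewer cells of a type and less RNA per cell cannot be told apart, and the part of these marker shifts in the results below was not tested.

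A change was called where the adjusted p of limma (Benjamini-Hochberg over 67528 transcript clusters) was under 0.05 and the change was at least 1.5 times. After the knockdown of *ELOVL5*, only *TFPI2* of the 8 genes was called, and it rose. Across all genes, 0.672% were called higher and 0.69% lower in this comparison. Upon knockdown of *IGFBP6*, *PLAU*, *PLAUR*, *SERPINE2* and *TFPI2* rose and *PLAT*, *F3* and *THBD* fell, against 7.82% of all genes called higher and 8.49% called lower. *TFPI* was not called in any comparison. Set directly against ELOVL5 knockdown cells, IGFBP6 knockdown cells gave the same 4 genes higher and the same 3 lower, while 6.5% of all genes were called higher and 6.64% lower there. A filter that asked for log2 of at least 6 on at least 3 arrays kept 11228 genes, among them these 8. With that filter, 3.12% of genes were called after the knockdown of *ELOVL5*, 30.3% after that of *IGFBP6* and 25.1% between the knockdowns. The median absolute log2 change of the 8 genes was 0.34 after the knockdown of *ELOVL5*, 1.17 after that of *IGFBP6* and 1.00 between the knockdowns. Over all genes, taken without that filter, it was 0.09, 0.16 and 0.15 in the same order.

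**Figure D1:**
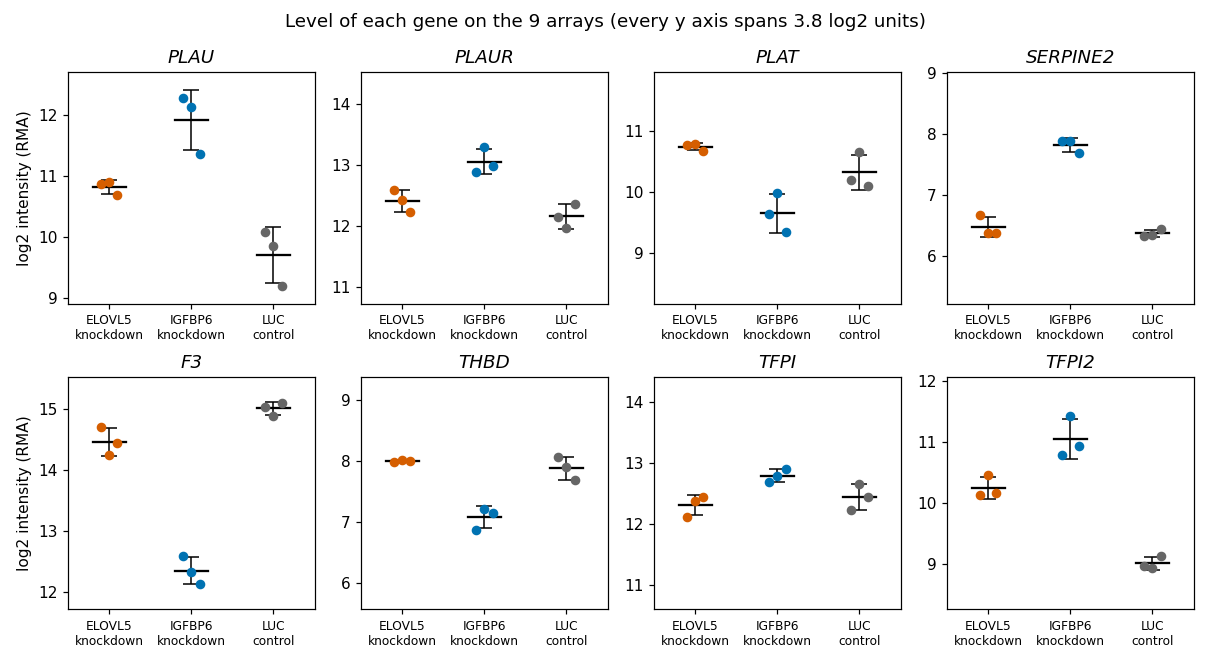
Log2 intensity (y axis, RMA) of each gene in ELOVL5 knockdown, IGFBP6 knockdown and LUC control cells (x axis), with 1 coloured point per array and the mean and SD of 3 arrays in black. *PLAU*, *PLAUR*, *SERPINE2* and *TFPI2* are highest and *PLAT*, *F3* and *THBD* lowest in IGFBP6 knockdown cells. Panels have their own position on the y axis but the same span, and levels are not comparable between panels.

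Promoter windows are shown for 3 genes whose mRNA rose (*PLAU*, *PLAUR*, *TFPI2*) and for the one that fell most (*F3*), while those of *SERPINE2*, which also rose, hold only SP1 boxes among the motifs searched and are left out for length. A window runs from 250 bases before to 50 bases after an annotated start (RefSeq, GRCh38.p14), 5′ to 3′ on the strand of the gene, and the table used holds such windows for 7 of the 9 listed genes. No window was available for *PLAT* and *THBD*, which also fell after the knockdown of *IGFBP6*, so neither was searched. Capitals mark matches on either strand to any of 5 motifs. The AP-1 motif was searched as TGANTCA and the SP1 box as the letters GGGCGG. The EGR1 motif was spelled GCGNGGGCG, which can overlap the SP1 box. The TATA box was spelled TATAAA, and the cyclic AMP element (CRE) was searched with the letters TGACGTCA.
PLAU, second annotated start, chr10:73910882-73911181, plus strand: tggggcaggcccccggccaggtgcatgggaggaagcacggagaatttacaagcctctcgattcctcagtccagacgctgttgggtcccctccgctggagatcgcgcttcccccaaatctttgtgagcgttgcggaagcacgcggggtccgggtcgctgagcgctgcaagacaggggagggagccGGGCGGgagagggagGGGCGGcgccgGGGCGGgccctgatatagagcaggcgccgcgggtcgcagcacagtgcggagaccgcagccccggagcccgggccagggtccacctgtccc
PLAUR, chr19:43670120-43670419, minus strand: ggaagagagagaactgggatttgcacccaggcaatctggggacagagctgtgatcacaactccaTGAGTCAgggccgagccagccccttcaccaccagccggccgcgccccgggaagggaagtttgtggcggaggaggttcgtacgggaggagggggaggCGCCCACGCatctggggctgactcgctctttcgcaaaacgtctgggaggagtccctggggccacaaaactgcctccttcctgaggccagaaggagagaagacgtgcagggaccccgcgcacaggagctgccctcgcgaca
F3, chr1:94541710-94542009, minus strand: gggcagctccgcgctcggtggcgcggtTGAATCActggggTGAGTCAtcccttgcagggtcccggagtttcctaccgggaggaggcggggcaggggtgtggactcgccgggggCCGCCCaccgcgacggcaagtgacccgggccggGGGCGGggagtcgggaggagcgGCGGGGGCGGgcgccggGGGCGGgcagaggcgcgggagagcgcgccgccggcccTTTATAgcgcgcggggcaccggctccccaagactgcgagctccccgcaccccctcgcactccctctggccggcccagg
TFPI2, chr7:93890704-93891003, minus strand: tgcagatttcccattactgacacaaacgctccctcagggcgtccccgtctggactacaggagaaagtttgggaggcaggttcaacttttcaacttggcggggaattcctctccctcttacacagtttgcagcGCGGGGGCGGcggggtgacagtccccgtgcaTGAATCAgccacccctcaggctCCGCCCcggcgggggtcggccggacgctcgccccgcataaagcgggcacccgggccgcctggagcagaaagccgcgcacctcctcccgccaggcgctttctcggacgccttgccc

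The AP-1 letters were found in the windows of *PLAUR* (TGAGTCA at -186 to -180), *F3* (TGAATCA at -223 to -217 and TGAGTCA at -210 to -204), *TFPI2* (TGAATCA at -87 to -81) and the unmeasured *SERPINB2* (TGAATCA at -102 to -96), counted from the start. That is 4 of the 9 windows of the listed genes, 1 of them of the unmeasured gene, while 7.71% of 35116 windows in the table hold these letters. The match is thus present in windows of genes that rose and in that of *F3*, the only gene that fell whose window was available. It was not found in either window of *PLAU* or *SERPINE2* or in that of *TFPI*. *F3* also holds 4 SP1 boxes, and the second window of *PLAU* holds 3, while its first window, not shown, holds no match to any motif. *TFPI2* holds SP1 boxes at -114 to -109 and at -65 to -60. The SP1 letters were found in 5 of the 9 windows and in 45% of all windows. A TATA box read on the opposite strand lies in the window of *F3*, and 11.5% of all windows hold the TATA letters. The EGR1 letters occurred in the windows of *PLAUR*, *F3* and *TFPI2* (9.43% of all windows), and the CRE letters in none of the 9 windows (1.85% of all windows). Motif matches are a description of the sequence.

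*PLAU* encodes urokinase, a secreted protease that cuts plasminogen into plasmin at the cell surface (GRCh38.p14, chr10:73908832-73917494). Its arrays gave 10.88, 10.90 and 10.69 in ELOVL5 knockdown cells, 12.29, 12.13 and 11.37 in IGFBP6 knockdown cells, and 10.09, 9.85 and 9.20 in control cells. The 3 groups did not overlap, and the array numbered 3 was the lowest of its group in every group. With *IGFBP6* knocked down, *PLAU* averaged 11.93 ± 0.49 (SD, n = 3), against 9.71 ± 0.46 (SD, n = 3) in the control, a rise of 4.65 times (log2 fold change 2.22, standard error 0.26, adjusted p = 0.000178). In ELOVL5 knockdown cells it averaged 10.82 ± 0.12 (SD, n = 3), and the log2 fold change of 1.11 against the control did not pass (adjusted p = 0.0853), with a 95% confidence interval of 0.53 to 1.69. This comparison passed without IGFBP6 replicate 3, which enters only the shared spread (log2 fold change 1.11, adjusted p = 0.0420), and under some other settings of the fit. The difference of 1.11 between IGFBP6 and ELOVL5 knockdown cells was called (adjusted p = 0.0159), but not without ELOVL5 replicate 3 (log2 1.04, adjusted p = 0.0636), IGFBP6 replicate 1 (0.93, adjusted p = 0.0519) or IGFBP6 replicate 2 (1.01, adjusted p = 0.0610).

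*PLAUR* encodes the receptor that holds urokinase at the outer membrane through a lipid anchor (chr19:43646095-43670169). It read 12.58, 12.43 and 12.22 in ELOVL5 knockdown cells, 12.89, 13.29 and 12.98 in IGFBP6 knockdown cells, and 12.15, 11.96 and 12.36 in control cells. All IGFBP6 knockdown arrays lay above the other 6, and the ELOVL5 knockdown arrays overlapped the control. *PLAUR* rose by 1.86 times after the knockdown of *IGFBP6* (log2 fold change 0.90, standard error 0.14, adjusted p = 0.00142). After the knockdown of *ELOVL5* the log2 fold change was 0.25, with an interval of -0.07 to 0.57 (adjusted p = 0.587). Between the knockdowns the difference was 0.64 (adjusted p = 0.0125), which was not called without ELOVL5 replicate 3 (0.55, adjusted p = 0.0602) or IGFBP6 replicate 2 (0.53, below 1.5 times).

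*PLAT*, the tissue-type activator that works best on fibrin, is on chr8:42174718-42207565 and went the other way from *PLAU* in IGFBP6 knockdown cells. Its levels were 10.78, 10.79 and 10.68 in ELOVL5 knockdown cells, 9.64, 9.99 and 9.35 in IGFBP6 knockdown cells, and 10.21, 10.66 and 10.11 in control cells. The groups were ordered ELOVL5 knockdown, control, IGFBP6 knockdown and did not overlap, though control replicate 2 came close to the ELOVL5 knockdown arrays. In IGFBP6 knockdown cells *PLAT* fell by 0.67 on the log2 scale (1.59 times lower than the control, standard error 0.18, adjusted p = 0.0244). This call was lost without IGFBP6 replicate 1 (-0.66, adjusted p = 0.0581), IGFBP6 replicate 3 (-0.51, adjusted p = 0.0854) or control replicate 2 (-0.50, adjusted p = 0.0859), and with only the arrays of both groups fitted (adjusted p = 0.0594). The log2 fold change of 0.42 after the knockdown of *ELOVL5* did not pass (adjusted p = 0.393). Directly compared, IGFBP6 knockdown cells had 2.13 times less *PLAT* than ELOVL5 knockdown cells (log2 -1.09, standard error 0.18, adjusted p = 0.00192), a call kept when any 1 array was left out.

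*SERPINE2* encodes protease nexin-1, which inhibits thrombin and both plasminogen activators (chr2:223975045-224039286). The values were 6.68, 6.39 and 6.38 in ELOVL5 knockdown cells, 7.89, 7.89 and 7.70 in IGFBP6 knockdown cells, and 6.33, 6.35 and 6.45 in control cells. IGFBP6 knockdown cells stood clear of the other 6 arrays, which overlapped among themselves. The rise after the knockdown of *IGFBP6* was 2.73 times (log2 fold change 1.45, standard error 0.11, adjusted p = 7.68e-06), and against ELOVL5 knockdown cells it was 2.54 times (log2 1.34, adjusted p = 2.31e-05). After the knockdown of *ELOVL5* the log2 fold change was 0.11, with an interval of -0.13 to 0.34 (adjusted p = 0.814). None of the calls of *SERPINE2* changed when any 1 array was left out.

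*F3* encodes tissue factor, the membrane protein that binds factor VII and starts coagulation (chr1:94529173-94541759), and it had the largest change of the 8 genes. Arrays gave 14.70, 14.24 and 14.44 in ELOVL5 knockdown cells, 12.59, 12.33 and 12.14 in IGFBP6 knockdown cells, and 15.04, 14.89 and 15.10 in control cells. Again the 3 groups did not overlap, with the control highest and the IGFBP6 knockdown lowest. *F3* averaged 12.35 ± 0.23 (SD, n = 3) in IGFBP6 knockdown cells, against 15.01 ± 0.11 (SD, n = 3) in the control, which is 6.31 times lower (log2 fold change -2.66, standard error 0.14, adjusted p = 1.06e-06). Relative to ELOVL5 knockdown cells it was 4.31 times lower (log2 -2.11, adjusted p = 1.02e-05). In ELOVL5 knockdown cells *F3* averaged 14.46 ± 0.23 (SD, n = 3), and the log2 fold change of -0.55 against the control passed neither the fold nor the p threshold (adjusted p = 0.129).

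*THBD* encodes thrombomodulin, which binds thrombin and turns it into an activator of protein C, a brake on coagulation (chr20:23045633-23049672). It was measured at 7.99, 8.02 and 8.0 in ELOVL5 knockdown cells, at 6.88, 7.22 and 7.15 in IGFBP6 knockdown cells, and at 8.07, 7.90 and 7.69 in control cells. The IGFBP6 knockdown arrays were the 3 lowest, and ELOVL5 knockdown arrays lay within the range of the control. Upon knockdown of *IGFBP6*, *THBD* fell by 0.80 log2 units (1.75 times lower, standard error 0.12, adjusted p = 0.000885). Compared with ELOVL5 knockdown cells, IGFBP6 knockdown cells were 1.89 times lower (log2 -0.92, adjusted p = 0.000525). For the knockdown of *ELOVL5* the log2 fold change was 0.12, with an interval of -0.15 to 0.38 (adjusted p = 0.822).

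*TFPI* encodes the main inhibitor of the complex of tissue factor with factor VIIa (chr2:187464230-187554435). Its log2 intensities were 12.12, 12.38 and 12.44 in ELOVL5 knockdown cells, 12.69, 12.79 and 12.90 in IGFBP6 knockdown cells, and 12.24, 12.66 and 12.44 in control cells. The IGFBP6 knockdown arrays were the 3 highest, though the lowest of them exceeded control replicate 2 by less than the spread within groups. The log2 fold change was 0.35 after the knockdown of *IGFBP6* (interval 0.06 to 0.63, adjusted p = 0.102) and -0.13 after that of *ELOVL5* (interval -0.42 to 0.15, adjusted p = 0.804). IGFBP6 knockdown cells differed from ELOVL5 knockdown cells by 0.48 (adjusted p = 0.0298), less than 1.5 times.

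*TFPI2* encodes a related inhibitor that acts on plasmin and other matrix-degrading proteases more than on tissue factor (chr7:93885396-93890753). Readings were 10.13, 10.46 and 10.16 in ELOVL5 knockdown cells, 10.79, 11.42 and 10.93 in IGFBP6 knockdown cells, and 8.97, 8.94 and 9.14 in control cells. No array of one group reached another group, in the order IGFBP6 knockdown, ELOVL5 knockdown, control from high to low. Relative to the control, *TFPI2* was 2.35 times higher in ELOVL5 knockdown cells (log2 fold change 1.23, standard error 0.16, adjusted p = 0.00491) and 4.08 times higher in IGFBP6 knockdown cells (log2 fold change 2.03, adjusted p = 1.31e-05). Both comparisons share the 3 control arrays. IGFBP6 knockdown cells exceeded ELOVL5 knockdown cells by 1.74 times (log2 0.80, adjusted p = 0.0070). The call for the knockdown of *ELOVL5* was lost where the spread came from the arrays of each gene alone (adjusted p = 0.0840), and it was kept when any 1 array was left out.

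**Figure D2:**
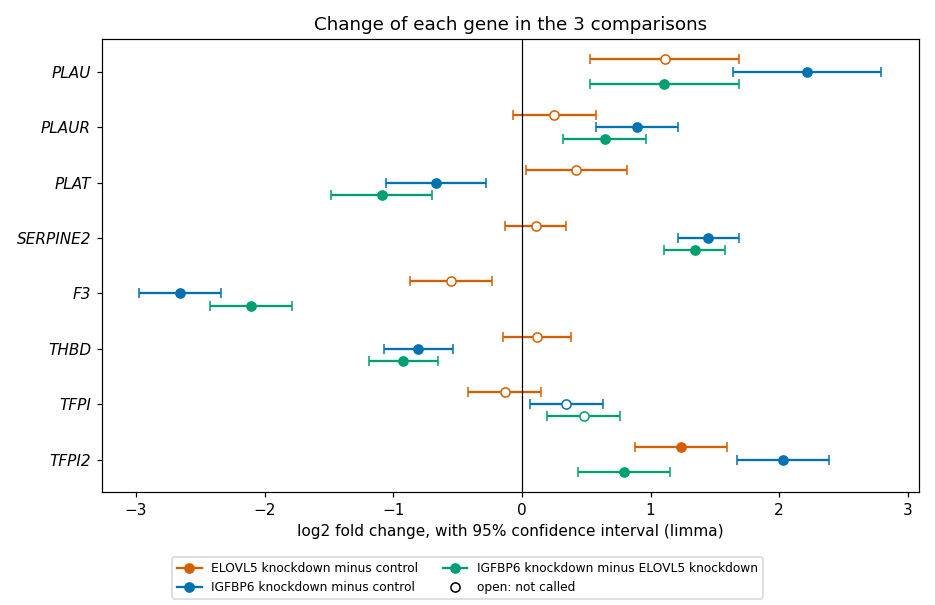
Log2 fold change (x axis) of each gene (y axis) in the 3 comparisons, with 95% confidence intervals of limma, filled where called and open where not. *F3* reaches -2.66 and *PLAU* 2.22 after the knockdown of *IGFBP6*, while *TFPI2* is the 1 gene called after the knockdown of *ELOVL5*.

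The arrays of the knockdown and of the control stood apart for 4 of the 8 genes in ELOVL5 knockdown cells, 3 above the control and 1 below, while over all genes 9.91% lay above, 13.8% below and 23.7% apart in either direction. In IGFBP6 knockdown cells they stood apart for 8 of the 8, 5 above and 3 below, against 18.2% above, 19.5% below and 37.7% in either direction over all genes. Between IGFBP6 and ELOVL5 knockdown cells, 8 of the 8 genes stood apart, 5 above and 3 below. Over all genes, 20.9% lay above, 18.9% below and 39.8% apart in either direction there. These shares over all genes were taken without the filter on dim probes, which all 8 genes passed. Within fibrinolysis, the urokinase gene, its receptor gene and the inhibitor gene *SERPINE2* were higher and the tissue-type activator gene was lower in IGFBP6 knockdown cells than in the control. Within coagulation, the starter *F3* and the brake *THBD* were both lower there, and *TFPI*, the inhibitor of tissue factor, was not called (log2 fold change 0.35, adjusted p = 0.102 by limma). *TFPI2*, counted here with coagulation though its protein acts more on plasmin than on tissue factor, was higher.

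Genes next to *F3* fell with it. The 3 nearest measured protein-coding genes on each side were taken for every gene, 48 in all. After the knockdown of *IGFBP6*, 5 of the 6 neighbours of *F3* were called lower, with log2 fold changes of -1.34 for *ABCD3* (a peroxisomal transporter), -1.49 for *CNN3* (a calponin), -1.0 for *ARHGAP29*, -0.92 for *ALG14* and -0.75 for *SLC44A3*, and the median of the 6 was -0.96. After the knockdown of *ELOVL5* their median was -0.34, and *ABCD3* was called (-0.61, adjusted p = 0.0249), a call that leaving out any of ELOVL5 replicates 1, 2 and 3 or control replicates 1, 2 and 3 removed (adjusted p from 0.0572 to 0.0907). Set against the mean of its 6 neighbours on the same array, which was tried once the values were known, *F3* was still lower after the knockdown of *IGFBP6* (log2 -1.70, standard error 0.17, adjusted p = 5.17e-05). Whether the change of the neighbours has a part in that of *F3* was not tested.

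*SERPINE2* also had neighbours that moved. *DOCK10*, which encodes an activator of small GTPases, rose by 1.18 in ELOVL5 knockdown cells and by 3.09 in IGFBP6 knockdown cells, and *MRPL44* and *CUL3* rose by 0.70 and 0.67 in IGFBP6 knockdown cells. Against the mean of its 6 neighbours the rise of *SERPINE2* was 0.76 on the log2 scale (adjusted p = 0.00116), in place of 1.45. The rise of *PLAU* was 1.74 in this way (adjusted p = 0.00135) and that of *TFPI2* was 2.31 (adjusted p = 4.56e-06), since *CALCR* and *VPS50* beside *TFPI2* fell by 0.75 and 0.67. The fall of *THBD* was 0.66 against its neighbours (log2 fold change -0.66, adjusted p = 0.00208), of which none was called after the knockdown of *IGFBP6*, and *FOXA2* was called lower after that of *ELOVL5* (-0.64), a call lost without any 1 of the ELOVL5 or control replicates 1, 2 and 3 (adjusted p from 0.0550 to 0.137). *PLAUR* rose by 1.11 relative to its neighbours (adjusted p = 0.00106), among which *KCNN4* fell by 0.67, a call lost without ELOVL5 replicate 3, IGFBP6 replicate 1, 2 or 3, or control replicate 1 or 2 (adjusted p from 0.0570 to 0.117). *PLAT*, with *ANK1* among its neighbours at -1.16, was no longer called (-0.42, adjusted p = 0.152). Of the other neighbours, *ADK* beside *PLAU* and *WDR75* beside *TFPI* rose (0.74 and 0.96), and *FAM171B* beside *TFPI* fell by 0.96. In all, 15 of the 48 neighbours (31.2%) were called after the knockdown of *IGFBP6*, against 16.3% of all genes, and 3 (6.25%) after that of *ELOVL5*, against 1.36%. With dim probes left out, 30.3% and 3.12% of genes were called in these comparisons, and the neighbours were not filtered in this way.

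**Figure D3:**
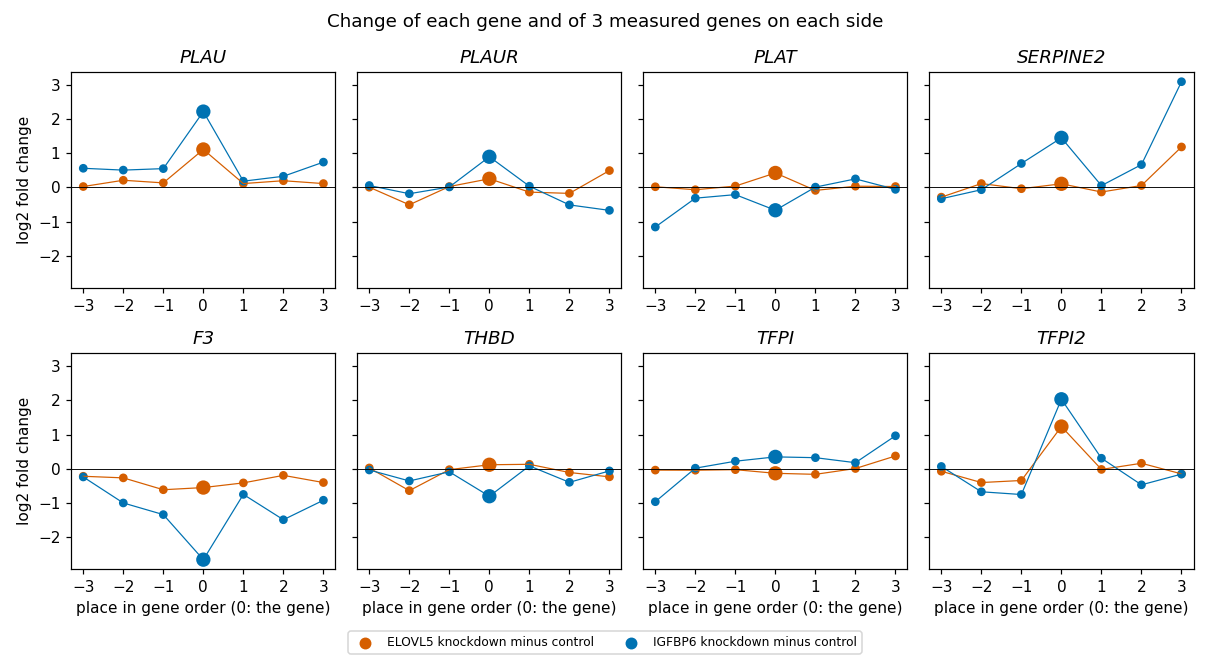
Log2 fold change against the control (y axis) of each gene (0, large points) and of the 3 measured protein-coding genes on each side in gene order (x axis, without distances), for the ELOVL5 and the IGFBP6 knockdown. The neighbours of *F3* lie below 0 in both comparisons, down to -1.49 in IGFBP6 knockdown cells, while *TFPI2* and *PLAU* stand above theirs.

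Other genes of both systems were described by lists. *PLG*, the plasminogen gene, was at 4.66 ± 0.05 in ELOVL5 knockdown cells, 4.63 ± 0.05 in IGFBP6 knockdown cells and 4.69 ± 0.03 in control cells (SD, n = 3 each), under the median of all values. Of 13 other measured genes of plasminogen activation, 0 were called after the knockdown of *ELOVL5* by limma, and *SERPINB8* rose after that of *IGFBP6* (log2 fold change 1.24, adjusted p = 0.000177). Their median log2 fold change was -0.03 in ELOVL5 knockdown cells and 0.01 in IGFBP6 knockdown cells, beside -0.02 and -0.01 over all genes.

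Of 14 measured receptors and partners that gather plasminogen or clear its activators, 5 fell and 1 rose in IGFBP6 knockdown cells against the control. The other 8 were not called. Over all genes, 8.49% were called lower and 7.82% higher, and with dim probes left out 30.3% were called in either direction. The 14 were not filtered in this way. The median log2 fold change of the 14 was -0.42. *ITGB3*, an integrin subunit that binds vitronectin, fell most, to 5.43 ± 0.04 in IGFBP6 knockdown cells against 8.06 ± 0.47 in control cells (SD, n = 3 each), a log2 fold change of -2.64 (adjusted p = 6.82e-06). *SORL1* and *VLDLR*, endocytic receptors of the family that takes up urokinase, fell (log2 fold changes -1.40 and -1.32), as did *S100A10*, a plasminogen receptor subunit that pairs with an annexin (-1.02). *ITGAV* (-0.94) and *IGF2R* (0.59), named after their values were seen, complete the 6, and the rise of *IGF2R* was under 1.5 times without IGFBP6 replicate 2 (0.52) or 3 (0.55) or control replicate 1 (0.57) or 3 (0.53). In ELOVL5 knockdown cells 1 of the 14 was called, *ITGB3* (log2 fold change -1.03, adjusted p = 0.0329), and it was lost without any 1 of ELOVL5 replicates 1, 2 and 3 or IGFBP6 replicates 2 and 3 (adjusted p from 0.0552 to 0.132), with only both groups fitted (0.0735), with the spread of its own arrays alone (0.191) and with median centring (0.0648). The median of the 14 was -0.05 there, and 1.36% of all genes were called in either direction, or 3.12% with dim probes left out.

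Among 24 coagulation factors and anticoagulants, 1 rose and 3 fell after the knockdown of *IGFBP6*, a share near the 16.3% of all genes called there. After that of *ELOVL5*, limma called 0 of the 24 and 1.36% of all genes. *PROS1*, which encodes protein S, a cofactor of activated protein C, read 8.89, 9.08 and 9.12 in ELOVL5 knockdown cells, 11.49, 11.40 and 10.96 in IGFBP6 knockdown cells, and 9.97, 10.39 and 9.20 in control cells. It was highest in IGFBP6 knockdown cells (log2 fold change 1.43, standard error 0.26, adjusted p = 0.00291), and the ELOVL5 knockdown arrays lay below all control arrays (-0.82, adjusted p = 0.216), a difference called without control replicate 3 (-1.15, adjusted p = 0.0239). *F13A1*, the fibrin-crosslinking subunit of factor XIII, had 5.88, 6.36 and 6.21 in ELOVL5 knockdown cells, 4.97, 4.45 and 4.71 in IGFBP6 knockdown cells, and 8.21, 8.64 and 6.89 in control cells. It fell after the knockdown of *IGFBP6* (log2 fold change -3.20, adjusted p = 0.000147), to a level below the median of all values. After that of *ELOVL5* the log2 fold change was -1.76 (adjusted p = 0.0543), which was called without control replicate 3 (-2.28, adjusted p = 0.00113). *GAS6* and *ANXA5*, whose proteins bind phosphatidylserine, fell by 1.08 and 0.76 after the knockdown of *IGFBP6*.

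Receptors that thrombin and related proteases switch on by cutting them moved in opposite directions in IGFBP6 knockdown cells. *F2RL2*, a thrombin receptor, was at 10.98, 11.16 and 11.13 in ELOVL5 knockdown cells, 14.75, 14.96 and 14.91 in IGFBP6 knockdown cells, and 11.15, 11.02 and 11.61 in control cells. This rise of 12.2 times after the knockdown of *IGFBP6* (log2 fold change 3.61, standard error 0.14, adjusted p = 1.43e-07) exceeded that of any of the 8 genes described above. *F2R*, the main thrombin receptor, fell by 1.00 (adjusted p = 0.000105), and *F2RL3* was not called (0.22, adjusted p = 0.286). None of the 3 measured receptors was called by limma after the knockdown of *ELOVL5*, where *F2R* had an unadjusted p of 0.00684 (log2 fold change -0.37). *F2RL1* was not analysed here.

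Of 8 measured clade B serpins encoded together with *SERPINB2* on chromosome 18, *SERPINB7* rose after both knockdowns, with a log2 fold change of 0.89 in ELOVL5 knockdown cells (adjusted p = 0.00408) and of 2.56 in IGFBP6 knockdown cells (adjusted p = 2.64e-07), and *SERPINB8* rose in IGFBP6 knockdown cells. Over all genes, 16.3% were called in either direction in IGFBP6 knockdown cells and 1.36% in ELOVL5 knockdown cells, and with lists this short nothing is read from the counts of called serpins and Kunitz-type inhibitors. The call of *SERPINB7* in ELOVL5 knockdown cells was lost where the spread came from the arrays of each gene alone (adjusted p = 0.0532), and the control level of *SERPINB7* (5.37) lies near the median of all values. Of 9 other Kunitz-type inhibitors, *SPINT2*, which blocks membrane serine proteases, fell by 1.89 and *APP* fell by 0.94 after the knockdown of *IGFBP6*, and limma called 0 after that of *ELOVL5*. The median log2 fold changes of the serpins and of the Kunitz-type inhibitors were -0.03 and -0.03 after the knockdown of *IGFBP6*, near that of all genes.

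**Figure D4:**
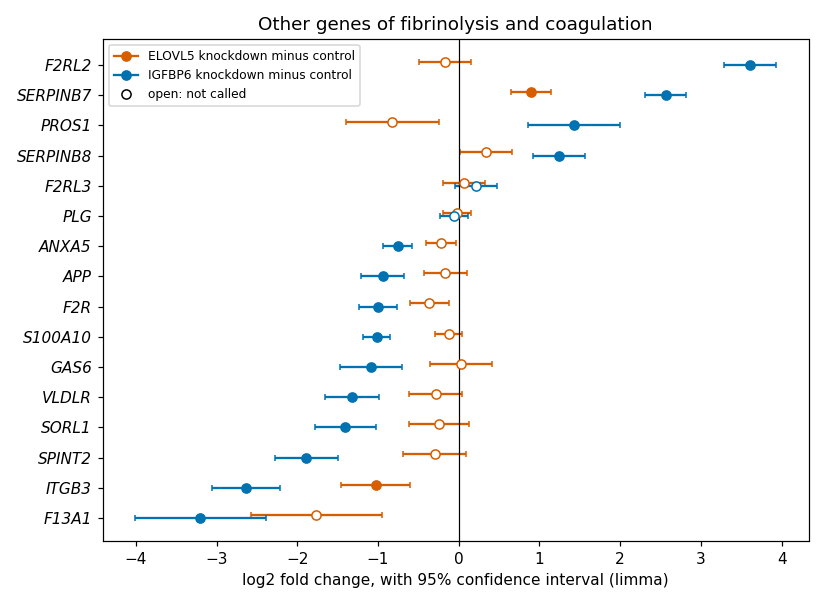
Log2 fold change with 95% confidence interval (x axis) of other genes of fibrinolysis and coagulation (y axis, ordered by the change after the knockdown of *IGFBP6*), for both knockdowns against the control, filled where called. *F2RL2* reaches 3.61 and *F13A1* -3.20 in IGFBP6 knockdown cells, and *SERPINB7* and *ITGB3* are the genes also called in ELOVL5 knockdown cells.

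The genes whose profile over the 9 arrays lay closest to that of *PLAU*, the widest-ranging gene of fibrinolysis, were *BCL2A1* (an apoptosis inhibitor), *SHC3* and *FAM230C*. After centring each gene on its mean, their Euclidean distances to *PLAU* were 0.71, 0.88 and 0.98 log2 units, and Pearson's r was 0.97, 0.96 and 0.94. Closest to *F3*, the widest-ranging gene of coagulation, were *COX7B2*, *LPAR1* (a receptor of lysophosphatidic acid) and *GATA6* (a transcription factor), at distances of 0.43, 0.48 and 0.52 and r of 0.99 for each. *LPAR1* had 11.79, 11.59 and 11.68 in ELOVL5 knockdown cells, 9.63, 9.57 and 9.74 in IGFBP6 knockdown cells, and 12.21, 12.07 and 12.48 in control cells. These likenesses are descriptions over 9 arrays that fall into 3 groups and share their normalization.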

How the data were processed

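RNA of 9 cell samples was hybridised to Human Transcriptome Array 2.0 arrays, and the authors deposited log2 intensities per transcript cluster, made with the RMA algorithm in Transcriptome Analysis Console 4.0.0.25 (options not given in the sources used here). Of 67528 transcript clusters, 23781 carry 1 symbol, 1543 several and 42204 none. A gene with several clusters was represented by the one with the highest mean. All 9 arrays were fitted with limma 3.58.1 in R 4.3.3 (lmFit, eBayes, no covariate, 6 residual degrees of freedom). With 3 arrays a group, the smallest p of an exact permutation test is 0.1, and the number of arrays limits the precision. The fit was tested on simulated data. Genes named are the listed genes, the targets, up to 4 called genes per list and comparison with the control, *PLG*, the protease-activated receptors, called neighbours and the 3 nearest profiles. The genes and lists were chosen with earlier results of these data known. Alternatives covered the spread, the arrays fitted, a replicate block, a dim filter (log2 of at least 6 on at least 3 arrays), normalization, centring, array weights, the adjustment, the fold threshold, gene summaries and leaving out each array. Promoters are from RefSeq. Figures used matplotlib 3.10.9 in Python 3.11.15.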

Additional observations from a re-analysis of the deposited data

Results flagged for a closer look

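The means of *PLAT* and *THBD* were above that of the control in ELOVL5 knockdown cells and below it in IGFBP6 knockdown cells, though for *THBD* the ELOVL5 knockdown arrays lay within the range of the control, and the direct comparison of the knockdowns was called for both. IGFBP6 knockdown minus ELOVL5 knockdown was -1.09 for *PLAT* (adjusted p = 0.00192 by limma) and -0.92 for *THBD* (adjusted p = 0.000525). The changes against the control in ELOVL5 knockdown cells, 0.42 and 0.12, did not pass, so a rise there is not shown.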

How the results depend on the processing

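Over 22 alternatives, 502 of 528 results of the 8 genes kept their side of the threshold, and called ones kept their direction. Of 2760 results of other named genes, 2639 kept their side of the threshold and 0 called ones turned round. With the spread of each gene from its own arrays, *TFPI2* after the knockdown of *ELOVL5* (log2 1.23, adjusted p = 0.0840) and *PLAT* after that of *IGFBP6* (-0.67, 0.0980) were not called. Between the knockdowns, *PLAU* (1.11, 0.0894) and *PLAUR* (0.64, 0.0576) were not called either. This left 0 of the 8 genes higher after the knockdown of *ELOVL5* and 2 between the knockdowns. Over all genes, the share called in these comparisons fell too, from 1.36% to 0.418% and from 13.1% to 11.2%. In limma, 4 of the 8 had an unadjusted p under 0.05 after the knockdown of *ELOVL5*, and that share over all genes is not given here. *PLAT* after that of *IGFBP6* was also lost with only the 2 groups fitted (-0.67, adjusted p = 0.0594) and against its neighbours (-0.42, 0.152), as was *PLAU* between the knockdowns (0.76, 0.103), a setting chosen after seeing the data. *PLAU* after the knockdown of *ELOVL5* was called, making 2 genes higher, with dim probes left out (1.11, 0.0453) and array weights (1.04, 0.0354). With the replicate number as a block it was called too (1.11, adjusted p = 0.0133, 2 genes higher), and over all genes 1.43% in place of 1.36% were called. Same-numbered arrays had r over 0.1 in 4 of 9 pairs (range -0.06 to 0.33), while differently numbered pairs ranged from -0.27 to 0.19. Of 9 arrays, 6 matched their own number best, and whether some numbers share an effect was not tested. Since the other 5 same-numbered pairs lay under 0.1 and the labels name no shared batch, the numbers were not taken as a pairing. The block changed no other call of the 8 genes. Without a fold threshold, *TFPI* differed between the knockdowns (0.48). At a threshold of 2 times, *PLAUR* (0.90), *PLAT* (-0.67) and *THBD* (-0.80) after the knockdown of *IGFBP6* were not called, leaving 1 gene lower, nor were *PLAUR* (0.64), *THBD* (-0.92) and *TFPI2* (0.80) between the knockdowns, leaving 2 higher. Among the 8 genes, only the uncalled change of *SERPINE2* after the knockdown of *ELOVL5* changed sign, to -0.04 against its neighbours, and uncalled changes of some other named genes, such as *GAS6*, did so too. Leaving out 1 array gave 0.85 to 1.30 for *PLAU* after the knockdown of *ELOVL5*, -0.83 to -0.50 for *PLAT* after that of *IGFBP6*, and 0.93 to 1.39 for *PLAU* and 0.53 to 0.73 for *PLAUR* between the knockdowns, with 1 to 2 genes higher after that of *ELOVL5* and 2 to 4 between the knockdowns. Leaving out an array also makes its group smaller, and the cause of these changes was not tested.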
